A study of Mus musculus with 10 samples.

Results

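The expression of 10 pluripotency factor genes was followed in mouse embryonic stem cells and in 4 populations on the way to blood. The members were taken by name from the authors' matrix of 15686 genes, and their counts by Ensembl ID from the count tables. They were Pou5f1, Sox2, Nanog, Esrrb, Zfp42, Tfcp2l1, Tbx3, Klf4, Dppa5a and L1td1, which are 10 of 55487 annotated genes. All 10 passed the filter on low counts, as did 22596 genes in all. Nuclear RNA was sequenced in 10 libraries, with 2 libraries for each of 5 stages. All stages derive from HM-1, a single mouse ES cell line used for gene targeting, and the labels name no further allele or drug in any stage. ES cells were grown with LIF and serum on gelatin. HB cells were the FLK1+ fraction of embryoid bodies after 3 d without LIF and stand for the haemangioblast. After a further 2.5 d of blast culture, HE1 cells were sorted as KIT+ TIE2+ CD41-, HE2 cells as KIT+ TIE2+ CD41+ and HP cells as KIT+ TIE2- CD41+, which stand for an early and a late haemogenic endothelium and for haematopoietic progenitors. The question was in which order and how deeply these genes were silenced. Because RNA was measured in bulk, fewer cells that express a gene and less RNA per cell cannot be told apart in any of the values below.

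Pluripotency is held by a small network of transcription factors that activate each other and themselves. OCT4, the product of Pou5f1, binds DNA together with SOX2 at composite sites, and NANOG occupies many of the same elements. A further tier of factors, among them ESRRB, ZFP42 (REX1), TFCP2L1, TBX3 and KLF4, is typical of the naive state that LIF maintains, and several of its genes are lost earlier than Pou5f1 when cells leave that state. Some members also work outside pluripotency, such as TBX3 in mesoderm and heart and KLF4 in endothelium and monocytes. Dppa5a and L1td1 encode RNA-binding proteins that are abundant in ES cells.

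The core factors lie on different chromosomes in mm10. Pou5f1 (ENSMUSG00000024406) is at chr17:35506018-35510772 on the plus strand, Sox2 (ENSMUSG00000074637) is a gene with 1 exon block at chr3:34650405-34652461 on the plus strand, and Nanog (ENSMUSG00000012396) is at chr6:122707489-122714633 on the plus strand. Of the naive factors, Esrrb is at chr12:86361117-86521628, Tfcp2l1 at chr1:118627945-118685168 and Tbx3 at chr5:119670669-119684724, all on the plus strand, and Zfp42 at chr8:43295063-43306980 and Klf4 at chr4:55527143-55532466, both on the minus strand. Dppa5a is at chr9:78367052-78368177 on the minus strand and L1td1 at chr4:98726734-98738480 on the plus strand. Counts were made on exons.

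Promoter sequences were available from RefSeq (GRCm38.p6) for 8 of the 10 members, Tbx3 and Dppa5a being those without an entry. The 250 bases before the annotated start were searched on both strands for 4 motifs, which were chosen after these promoters had been looked at, so that their presence is a description. The composite site of OCT4 and SOX2, written as TTTGCAT and ACAATG with any 1 base between them, was found in Nanog only, and in 1 of 27025 promoters of the same length (0.004%). Its letters were taken with the promoter of Nanog in view, so this low share is no result. The octamer ATTTGCAT was found in Zfp42 and in 1.61% of all promoters. The GC box GGGCGGG was found in Sox2, Klf4, Zfp42 and Pou5f1, and in 23.6% of all promoters. The half-site of nuclear receptors such as ESRRB, AGGTCA, was found in Sox2, Nanog and Pou5f1, and in 13.8% of all promoters. The octamer and the composite site share the letters TTTGCAT, and the sites in capitals do not overlap each other. GC boxes of Zfp42 and the half-site of Nanog are left in lower case. The starts are those of RefSeq. For Nanog the start is that of the Ensembl gene given above, and for Zfp42 and Pou5f1 it differs from it by some bases. The promoters of Nanog, Zfp42 and Pou5f1 are shown because they hold these different motifs and because Zfp42 and Pou5f1 were at opposite ends of the order in which the members other than Klf4 and Tbx3 fell in HB.
Nanog, chr6:122707239-122707488, plus strand, with the composite site in capitals: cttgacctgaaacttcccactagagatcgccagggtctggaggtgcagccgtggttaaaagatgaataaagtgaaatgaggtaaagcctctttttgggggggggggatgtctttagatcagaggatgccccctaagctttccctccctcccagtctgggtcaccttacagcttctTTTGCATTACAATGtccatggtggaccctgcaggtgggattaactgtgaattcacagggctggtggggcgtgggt
Zfp42, chr8:43307010-43307259, minus strand, with the octamer in capitals: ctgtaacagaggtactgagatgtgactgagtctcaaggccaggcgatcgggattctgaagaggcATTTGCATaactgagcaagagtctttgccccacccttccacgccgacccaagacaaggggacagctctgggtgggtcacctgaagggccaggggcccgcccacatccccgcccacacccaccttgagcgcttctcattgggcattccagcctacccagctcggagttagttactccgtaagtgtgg
Pou5f1, chr17:35505782-35506031, plus strand, with the GC box and the half-site in capitals: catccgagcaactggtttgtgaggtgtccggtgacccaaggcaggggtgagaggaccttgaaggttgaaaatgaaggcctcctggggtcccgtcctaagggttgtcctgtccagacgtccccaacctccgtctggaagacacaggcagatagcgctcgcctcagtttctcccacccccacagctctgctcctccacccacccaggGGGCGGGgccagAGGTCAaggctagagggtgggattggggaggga

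The libraries held between 24920434 and 58782055 counts, and a floor of 3 counts corresponded to 0.0532 to 0.126 CPM, where CPM are counts scaled by library size and TMM factor. Across the tested genes, log2 CPM of both libraries correlated most closely in ES (0.994) and least in HE1 (0.967). Among the genes of the sort markers, Kdr, which encodes FLK1, rose from 2.43 and 2.70 CPM in ES to 957 and 1284 CPM in HB, Tek, which encodes TIE2, was at 564 and 294 CPM in HE1, and Itga2b, which encodes CD41, was at 505 and 469 CPM in HE2. Itga2b was also at 227 and 127 CPM in HE1, which had been sorted as CD41-. Tek was still at 61.5 and 64.2 CPM in HP, which had been sorted as TIE2-. Kit was at 164 and 173 CPM in ES and at 146 and 73.0 CPM in HE1, which had been sorted as KIT+. In HE2 it was at 230 and 410 CPM and in HP at 363 and 251 CPM. Acta2, a smooth muscle gene, lay between 249 and 569 CPM in the libraries of HE1, HE2 and HP. The HE1 libraries stood apart from each other in the members, and their values are therefore given separately.

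In ES cells all members were far above the 9 CPM that the study took as the limit of expression. Per kilobase of exon, Dppa5a had the highest mean level at 1021 CPM per kb, followed by Zfp42 (246), Pou5f1 (238), Sox2 (168), L1td1 (135), Nanog (99.9), Esrrb (65.0), Tfcp2l1 (40.8), Klf4 (35.8) and Tbx3 (23.6). These levels put Dppa5a above 99.9% and Tbx3 above 87.7% of the tested genes. In HP the order was another, with Tbx3 first at 2.87 and Klf4 next at 2.26 CPM per kb, and Esrrb last at 0.066 CPM per kb, above 11.5% of the tested genes. Tbx3 thus went from the last to the first place in the order per kilobase, which it already held in HB at 62.2 CPM per kb, although in HE1 the mean of Dppa5a was above it. This rested on HE1 replicate 2, since Dppa5a was at 1.97 and 35.0 CPM per kb in the HE1 libraries and Tbx3 at 19.2 and 10.2.

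**Figure D1:**
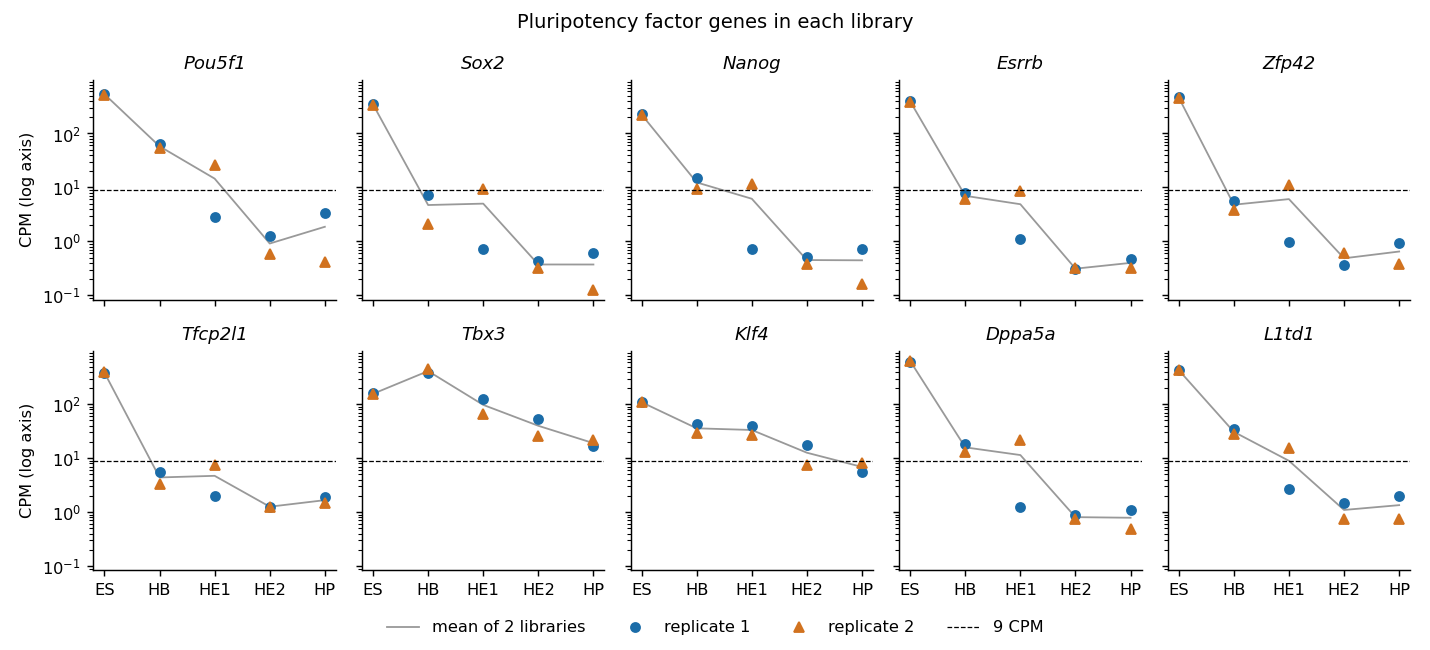
CPM after TMM scaling (log axis) of the 10 members by stage, with replicate 1 as circles, replicate 2 as triangles, the mean of both as a line and the 9 CPM limit dashed. All members except Tbx3 fell from ES to HB, and in HE1 the libraries of 8 members lay far apart, as for Nanog at 0.715 and 11.6 CPM.

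Pou5f1 was the last of the core factors to fall. It was at 549 and 520 CPM in ES, at 62.8 and 52.9 in HB, at 2.82 and 26.3 in HE1, at 1.25 and 0.571 in HE2, and at 3.31 and 0.413 in HP. Both HB libraries were thus below both ES libraries but above the 9 CPM limit, and the HE1 libraries fell on either side of that limit. In HB Pou5f1 fell by 3.21 on the log2 scale (SE 0.82, edgeR adjusted p = 0.00977). The call was lost when either HB library was left out, and the change of -8.09 in HP against ES (SE 1.05, edgeR adjusted p = 0.00011) was called whichever library was left out.

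Sox2 was at 349 and 341 CPM in ES, at 7.31 and 2.11 in HB, at 0.715 and 9.28 in HE1, at 0.427 and 0.317 in HE2, and at 0.616 and 0.127 in HP. It had thus gone under 9 CPM in both HB libraries, in a stage in which its partner Pou5f1 had not. In HB Sox2 fell by 6.21 on the log2 scale (SE 0.90, edgeR adjusted p = 0.000355). The CPM of Pou5f1 over that of Sox2, not corrected for length, was 1.58 and 1.52 in ES and 8.59 and 25.0 in HB, and lay between 1.80 and 5.37 in the later libraries. Both HB ratios were above both ES ratios, and the ratio is given as a description with no test.

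Nanog was between these genes. It was at 226 and 222 CPM in ES, at 15.2 and 9.52 in HB, at 0.715 and 11.6 in HE1, at 0.518 and 0.381 in HE2, and at 0.730 and 0.159 in HP. Both HB libraries were still above 9 CPM, and of the HE1 libraries replicate 2 was too. In HB Nanog fell by 4.18 on the log2 scale (SE 0.80, edgeR adjusted p = 0.00196), and in HP its change from ES was -8.86 (SE 1.05).

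The naive factors Esrrb, Zfp42 and Tfcp2l1 fell together with Sox2. Esrrb, an orphan nuclear receptor, was at 399 and 386 CPM in ES, at 7.84 and 6.11 in HB, at 1.09 and 8.65 in HE1, at 0.305 and 0.317 in HE2, and at 0.479 and 0.318 in HP. Zfp42, a zinc finger gene used as a marker of the naive state, was at 475 and 451 CPM in ES, at 5.69 and 3.86 in HB, at 0.967 and 11.2 in HE1, at 0.366 and 0.603 in HE2, and at 0.913 and 0.381 in HP. Tfcp2l1, a target of LIF signalling, was at 381 and 389 CPM in ES, at 5.49 and 3.30 in HB, at 2.02 and 7.40 in HE1, at 1.25 and 1.27 in HE2, and at 1.87 and 1.46 in HP. All 3 were under 9 CPM in both HB libraries, and Esrrb and Tfcp2l1 stayed under it in every later library. In HB their changes on the log2 scale were -5.82 (SE 0.64), -6.60 (SE 0.80) and -6.46 (SE 0.49), with edgeR adjusted p-values of 5.8e-05, 0.000109 and 6.05e-06. Tfcp2l1 kept 0.327% of its ES level in HE2, where Esrrb kept 0.0792% and Zfp42 0.105%, and its range over single libraries did not overlap with theirs.

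In HB Dppa5a and L1td1 fell less steeply than Esrrb, Zfp42 and Tfcp2l1, and Dppa5a fell more steeply than Nanog. Dppa5a was at 617 and 647 CPM in ES, at 18.5 and 13.2 in HB, at 1.22 and 21.6 in HE1, at 0.884 and 0.730 in HE2, and at 1.10 and 0.477 in HP. L1td1 was at 426 and 433 CPM in ES, at 34.1 and 27.5 in HB, at 2.65 and 15.2 in HE1, at 1.46 and 0.730 in HE2, and at 1.96 and 0.731 in HP. Both remained above 9 CPM in HB and in replicate 2 of HE1. In HB their changes on the log2 scale were -5.32 (SE 0.87, edgeR adjusted p = 0.000795) and -3.80 (SE 0.61, edgeR adjusted p = 0.000706).

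Tbx3 and Klf4 took another course. Tbx3 was at 159 and 153 CPM in ES, at 377 and 447 in HB, at 127 and 67.3 in HE1, at 54.3 and 25.4 in HE2, and at 16.6 and 21.4 in HP. It was thus higher in both HB libraries than in both ES libraries, and under both ES libraries from HE1 on. In HB Tbx3 rose by 1.40 on the log2 scale (SE 0.35, edgeR adjusted p = 0.00869), and in this fit it was the only member called higher at any transition or against ES. Klf4 was at 110 and 108 CPM in ES, at 42.7 and 28.9 in HB, at 39.8 and 26.8 in HE1, at 17.8 and 7.43 in HE2, and at 5.59 and 8.17 in HP. In HB Klf4 fell by 1.61 on the log2 scale (SE 0.36, edgeR adjusted p = 0.00532), a call that was lost without HB replicate 2, and the HB and HE1 libraries overlapped. In HP both were still well above the other members relative to ES, with changes on the log2 scale of -3.04 (SE 0.37) for Tbx3 and -3.99 (SE 0.41) for Klf4, against -7.84 to -9.90 for the other 8.

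Over the step from ES to HB, 9 of the 10 members were thus called lower, where 17.3% of all tested genes were, and 1 was called higher, where 11.5% of all tested genes were. The median change was -4.75 on the log2 scale, and over all tested genes it was 0. Of 10472 genes that were at 9 CPM or more in ES, 4.32% were at 10% of their ES level or lower in HB, and 7 of the 10 members were. By the size of the fall among these 10472 genes, Zfp42 was in place 70, Tfcp2l1 in place 77, Sox2 in place 99, Esrrb in place 125, Dppa5a in place 166, Nanog in place 295, L1td1 in place 346, Pou5f1 in place 476 and Klf4 in place 1069. The members were thus spread widely among the falling genes, and the median gene of the 10472 kept 95.1% of its ES level.

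The order of silencing was read from the level left in HB as a percentage of ES, with the range over the 4 ratios of single libraries. Zfp42 kept 1.03% (0.813 to 1.26), Tfcp2l1 1.14% (0.847 to 1.44), Sox2 1.37% (0.606 to 2.14) and Esrrb 1.78% (1.53 to 2.03). The ranges of neighbours among these 4 overlapped, although those of Zfp42 and Tfcp2l1 both ended below that of Esrrb. Dppa5a came next with 2.51% (2.05 to 3.00), apart from Esrrb but overlapping with Sox2, whose libraries were the least alike. Nanog kept 5.52% (4.21 to 6.85) and L1td1 7.17% (6.36 to 7.99), which overlapped with each other but with no other member. Pou5f1 kept 10.8% (9.63 to 12.1), Klf4 32.8% (26.4 to 39.4) and Tbx3 stood at 264% (237 to 292), each apart from its neighbours. The naive genes Zfp42, Tfcp2l1 and Esrrb were thus lowest together with Sox2. Dppa5a came after them, Nanog and L1td1 followed, and Pou5f1 was above these.

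**Figure D2:**
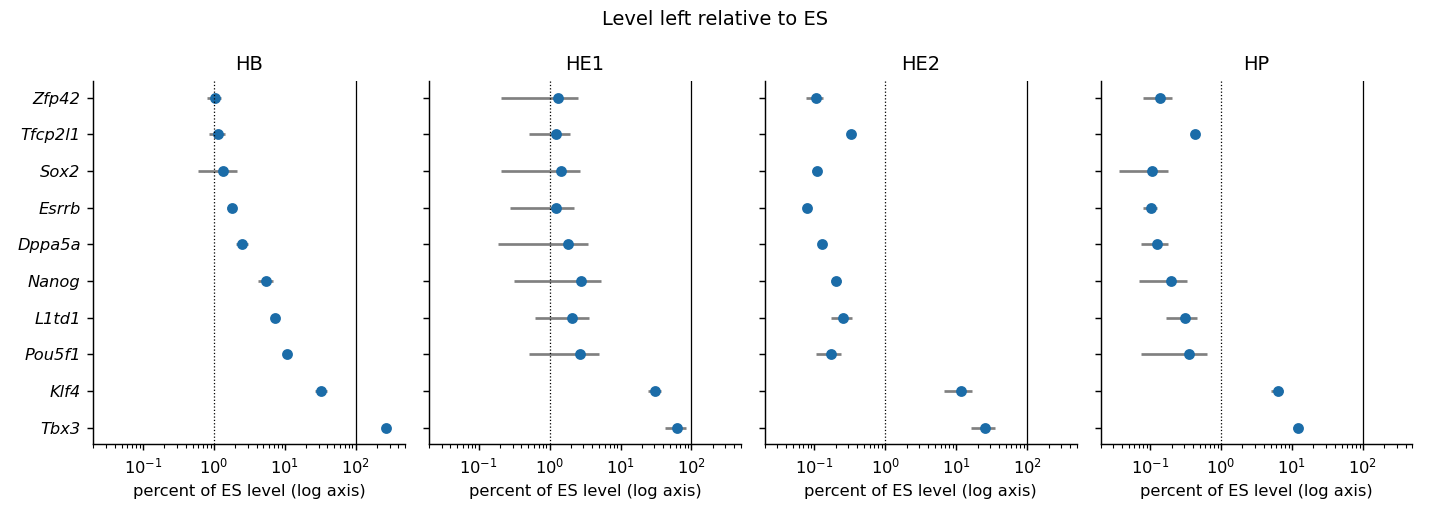
Mean CPM in HB, HE1, HE2 and HP as a percentage of the mean in ES (log axis), with bars from the lowest to the highest of the 4 ratios between single libraries; the solid line marks 100% and the dotted line 1%. The order in HB runs from Zfp42 at 1.03% to Tbx3 at 264%, the bars of 8 members are wide and overlap in HE1, and the same 8 are all under 1% in HE2 and HP.

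The HE1 libraries did not give a common picture. In replicate 1 the 8 members other than Tbx3 and Klf4 stood at 0.193% to 0.617% of their ES level, and in replicate 2 at 1.92% to 5.18%. All 8 were higher in replicate 2, by 3.66 times for Tfcp2l1 to 17.7 times for Dppa5a, with Nanog at 16.2, Sox2 at 13.0, Zfp42 at 11.5, Pou5f1 at 9.32, Esrrb at 7.91 and L1td1 at 5.75 times. Tbx3 and Klf4 went the other way, at 0.528 and 0.673 times. Of 20677 genes with at least 10 counts over both libraries, 16.3% were more than 2 times higher in replicate 2, and the ratio of Dppa5a was above that of 99.0% of them. Among 24 other genes of the pluripotency network, 17 were higher in replicate 2 and 12 more than 2 times higher.

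Other markers moved with this difference. The summed CPM of 6 endothelial markers was 3050 in replicate 1 and 1793 in replicate 2, that of 6 smooth muscle and fibroblast markers was 997 and 1792, and none of these 12 genes was at 0. All 6 endothelial markers were higher in replicate 1, as was Col1a2 of the second list (154 and 132 CPM). The other 5 smooth muscle and fibroblast markers were higher in replicate 2, with the largest difference in Col1a1 at 176 and 671 CPM. Of 5 neuroectoderm markers, which include Sox1 and Sox3, the sum was 242 and 282 CPM, most of it from Nes, and the other 4 summed to 1.47 and 7.50 CPM, with Sox1 at 0 and 2.15 CPM. The sum of 6 germ cell markers was 18.8 and 21.7 CPM, most of it from Prdm1 at 15.2 and 12.9 CPM. The other 5 germ cell markers were all higher in replicate 2 and summed to 3.62 and 8.79 CPM, with Dppa3 at 0.126 and 2.15 CPM. The sum of 6 markers of the 2-cell-like state was 0.0841 and 0.462 CPM, with 4 and 3 of the 6 at 0. The sums of the other 3 lists were higher in replicate 1, at 311 and 198 CPM for 6 blood markers, 1335 and 819 CPM for 6 haemangioblast and mesoderm markers, most of it from Kdr, and 630 and 503 CPM for 7 primitive endoderm markers. Without Kdr the other 5 haemangioblast and mesoderm markers summed to 70.2 and 101 CPM, and 4 of the 6 were higher in replicate 2. Of the blood markers, Runx1 (52.4 and 58.6 CPM) and Spi1 (1.85 and 2.48 CPM) were higher in replicate 2. So were Lama1 (66.0 and 85.3 CPM) and Amn (0.589 and 1.78 CPM) of the primitive endoderm markers. The part of these markers in the difference between the HE1 libraries was not tested. A smaller split was seen in HP, where the 8 members were higher in replicate 1, by 1.28 times for Tfcp2l1 to 8.0 times for Pou5f1. Of all genes with at least 10 counts there, 3.77% were more than 2 times higher in replicate 1 and 11.3% more than 2 times higher in replicate 2. Their median log2 ratio of replicate 2 over replicate 1 was -0.0485. Of the 24 network genes, 16 were higher in replicate 1 by any amount and 7 by more than 2 times. The smooth muscle and fibroblast markers summed to 1445 and 736 CPM there, and their part was not tested either. In HE2 Tbx3, Klf4, Pou5f1 and L1td1 were more than 2 times higher in replicate 1, and 13.5% of genes with at least 10 counts were too. The endothelial markers summed to 1981 and 1366 CPM in HE2 and the primitive endoderm markers to 248 and 116 CPM. The blood markers went the other way there, at 985 and 1338 CPM, as did Kit of the endothelial list, at 230 and 410 CPM.

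**Figure D3:**
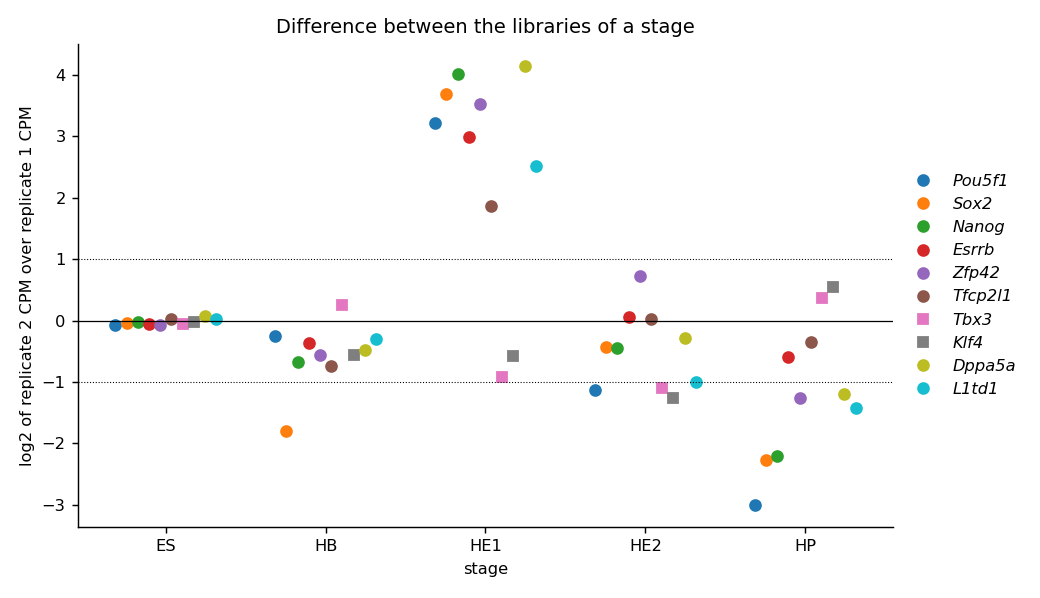
Log2 ratio of replicate 2 CPM over replicate 1 CPM for each member by stage, with circles for the 8 members and squares for Tbx3 and Klf4; dotted lines mark a 2-fold difference. The ratios are near 0 in ES, above 1 in HE1 for 8 members (3.66 to 17.7 times on the linear scale) and below 0 in HP for the same 8.

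From HB to HE1, 2 members were called lower, L1td1 with a change of -1.76 (SE 0.58, edgeR adjusted p = 0.0411) and Tbx3 with -2.08 on the log2 scale (SE 0.36, edgeR adjusted p = 0.00179), where 8.19% of all tested genes were lower. None was called higher, where 12.7% of all tested genes were. In edgeR 3 members were lower and none higher at an unadjusted p under 0.05. Without HE1 replicate 2, 9 members were called lower, all but Klf4, with changes from -1.11 for Tfcp2l1 to -4.35 for Pou5f1. Without HE1 replicate 1, Tbx3 was called lower, and Zfp42 higher by 1.19 (edgeR adjusted p = 0.0159). Whether Sox2, Esrrb, Zfp42, Tfcp2l1, Klf4 and Dppa5a were above or below HB thus turned on which HE1 library was used, and for Sox2, Tfcp2l1 and Klf4 also on which HB library was. L1td1 lost its call without HE1 replicate 1 and without either HB library, and Tbx3 was called lower whichever library was left out.

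From HE1 to HE2 all 10 members were called lower, where 5.39% of all tested genes were, and none was called higher, where 3.26% were. The changes were -4.00 for Pou5f1 (SE 0.99), -3.99 for Esrrb (SE 0.81), -3.84 for Dppa5a (SE 0.97), -3.79 for Nanog (SE 1.01), -3.77 for Sox2 (SE 1.08), -3.67 for Zfp42 (SE 0.90), -3.04 for L1td1 (SE 0.70), -1.92 for Tfcp2l1 (SE 0.49), -1.40 for Klf4 (SE 0.37) and -1.29 for Tbx3 (SE 0.35). The edgeR adjusted p-values lay between 0.0163 and 0.0455, close to the threshold. Without HE1 replicate 2, the library in which 8 members were high, the changes were -0.59 for Dppa5a, -0.66 for Nanog, -0.68 for Tfcp2l1, -0.93 for Sox2, -1.0 for Zfp42, -1.27 for L1td1, -1.62 for Pou5f1 and -1.80 for Esrrb, so that the size of the step for these members rested on that library. The count of 10 fell to 2 without it, which kept Esrrb and Tbx3, to 5 without HE2 replicate 1, and to 0 without HE2 replicate 2. Without HE1 replicate 1 it was 8, with Klf4 at -1.07 and Tbx3 at -0.73 no longer called, and without a library of ES, HB or HP it was 8 to 10. It was 2 with limma-voom, namely Klf4 and Tbx3, and 0 when only the 4 libraries of both stages were fitted. For all 10 members the lower HE1 library was above both HE2 libraries, which held for 30.4% of all tested genes, as for Tfcp2l1 at 2.02 against 1.25 and 1.27 CPM and for Nanog at 0.715 against 0.518 and 0.381 CPM.

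From HE2 to HP no member was called, and edgeR called none of the 22596 genes. At an unadjusted p under 0.05 edgeR gave 1783 genes, of which Tbx3 and Klf4 were members, both lower. limma-voom called 27 genes lower and 35 higher and DESeq2 194 lower and 107 higher, with none of the members among them. Tbx3 changed by -1.07 (SE 0.35, edgeR adjusted p = 0.351) and Klf4 by -0.88 (SE 0.38, edgeR adjusted p = 0.577), and both were called lower without HE2 replicate 2. Without HE2 replicate 1, Tbx3 was at -0.42 and Klf4 at -0.12, and neither was called. Both genes were higher in HE2 replicate 1, by 2.14 and 2.40 times. For Tbx3 both HP libraries were below both HE2 libraries. The 95% intervals of the other 8 were wide, from -3.08 to 3.29 for Sox2 and from -0.75 to 1.58 for Tfcp2l1, so that changes of several fold in either direction could not be detected for most of them with these libraries.

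**Figure D4:**
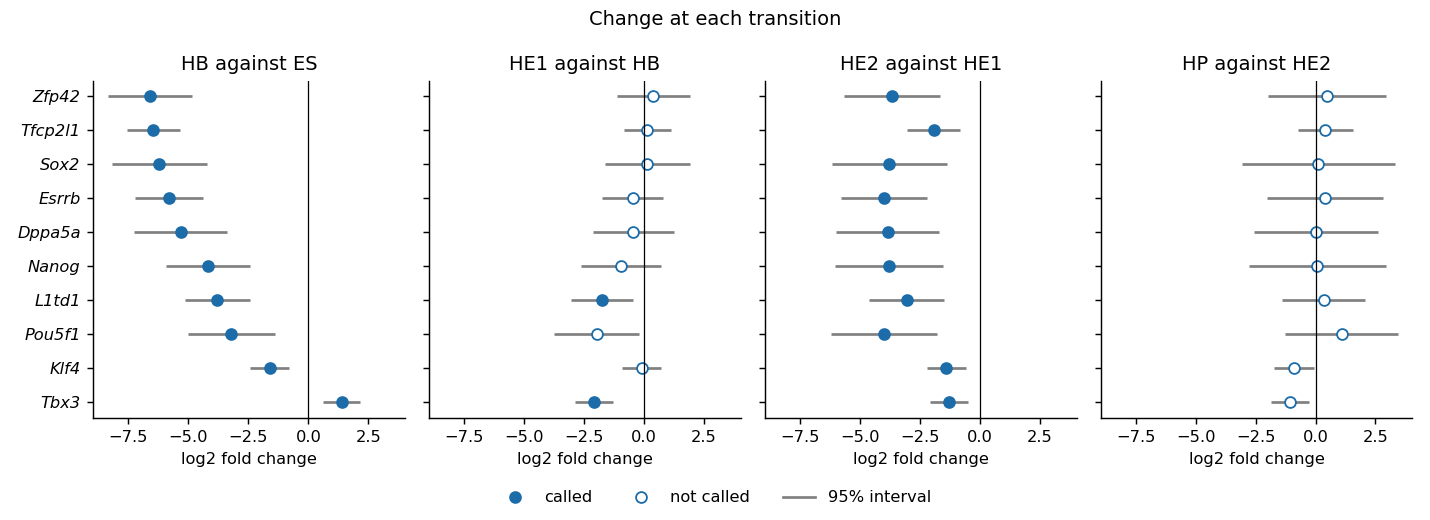
Log2 fold change of each member at each transition with its 95% interval from edgeR, filled where called (adjusted p under 0.05 and at least 2-fold) and open where not. Changes from ES to HB run from -6.60 for Zfp42 to 1.40 for Tbx3, and from HE2 to HP all intervals of the 8 members other than Tbx3 and Klf4 include 0.

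Compared with ES, 9 members were called lower in HE1 (20.4% of all tested genes), and 10 in HE2 and in HP (21.9% of all tested genes in each). None was called higher, where 20.3% of all tested genes were in HE1, 16.3% in HE2 and 16.7% in HP. These comparisons share the ES libraries. Tbx3 was the exception in HE1, with a change of -0.68 (SE 0.34, edgeR adjusted p = 0.116), and it was called lower without HE1 replicate 1. The deepest fall in HP was that of Esrrb at -9.90 (SE 0.81), followed by Sox2 at -9.73 (SE 1.11) and Dppa5a at -9.59 (SE 1.10). This order rested on the HP libraries, since without HP replicate 1 the changes were -11.37 for Sox2, -10.43 for Nanog, -10.36 for Dppa5a, -10.33 for Pou5f1 and -10.26 for Esrrb. Without HP replicate 2, Esrrb was lowest at -9.67 and Pou5f1 was at -7.33. By the share of the log2 fall from ES to HP that had been reached in HB, Tfcp2l1 stood first at 82.9%, followed by Zfp42 at 69.8%, Sox2 at 64.7%, Esrrb at 59.5% and Dppa5a at 55.2%. Nanog had reached 46.4%, L1td1 45.3%, Klf4 40.8% and Pou5f1 36.8%. These shares use mean log2 CPM with a prior count of 2 and not the edgeR changes. By that measure Tfcp2l1 fell by 6.48 in HB, less than Zfp42 at 6.61. The fall of Tfcp2l1 to HP, 7.81, was the smallest of the 8 members other than Tbx3 and Klf4.

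The number of members whose mean was under 9 CPM rose from 4 in HB (Sox2, Esrrb, Zfp42 and Tfcp2l1) to 6 in HE1, where Nanog and L1td1 were added, to 8 in HE2, with Pou5f1 and Dppa5a, and to 9 in HP, with Klf4. Tbx3 never went under it. Of the 10472 genes expressed in ES, 11.1% were under 9 CPM in HB and 13.2% in HP. In HE1 the count was 8 in replicate 1 alone and 2 in replicate 2 alone. In the authors' means it was 7, since Dppa5a was at 5.81 there against a mean of 11.4 CPM here, so that the place of Nanog, L1td1, Pou5f1 and Dppa5a in this order rested on the HE1 libraries. In HE2 the 8 members stood at 0.0792% to 0.327% of ES, that is 306 to 1263 times below it, and 2.00% of the genes expressed in ES were under 1%. Counts did not reach 0 at this depth, since Tfcp2l1 had 41 and 40 counts in the HE2 libraries and Pou5f1 145 and 13 in HP. Whether these residual counts reflect expression in the sorted cells was not tested. The lowest counts were those of Sox2 and Nanog in HP replicate 2, at 4 and 5, just above the floor.

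Genes related to members by family or name were set beside them. Esrra, the paralog of Esrrb, lay between 18.5 and 27.5 CPM in all 10 libraries, and in HP its change from ES was 0.26 on the log2 scale (95% interval -0.16 to 0.69) against -9.90 for Esrrb. Tfcp2, the paralog of Tfcp2l1, lay between 15.9 and 24.7 CPM, and its change in HP was 0.49 (95% interval 0.15 to 0.83), under the 2-fold criterion, against -7.84. Tbx2 rose with Tbx3 in HB, from 0.621 and 0.918 to 44.0 and 59.3 CPM (6.09 on the log2 scale, SE 0.81, edgeR adjusted p = 0.000201), and unlike Tbx3 it was still called higher than ES in HP (2.33, SE 0.76, edgeR adjusted p = 0.0244). In HB 5 of the 9 related genes found in the tables were called lower and 1 higher, against 17.3% and 11.5% of all tested genes, and their median change was -3.42 on the log2 scale against 0. Dppa4 shares a name but no gene family with Dppa5a, and without it 4 of 8 were lower and 1 higher, with a median of -1.80.

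The Klf genes of ES cells parted after HB. Klf2 was at 192 and 189 CPM in ES, at 20.9 and 12.6 in HB, at 135 and 61.5 in HE1, at 76.0 and 32.4 in HE2, and at 19.6 and 24.4 in HP. It fell by 3.51 on the log2 scale in HB (SE 0.46, edgeR adjusted p = 0.000188) and rose by 2.55 in HE1 (SE 0.44, edgeR adjusted p = 0.00193), and by 1.84 without HE1 replicate 1 and 3.01 without HE1 replicate 2, both called, whereas Klf4 changed by -0.10 there (95% interval -0.90 to 0.69). Klf5 fell by 3.42 on the log2 scale in HB (SE 0.16) and then stayed between 15.5 and 22.1 CPM. Klf2 is known for its role in endothelium under flow as well as in ES cells.

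**Figure D5:**
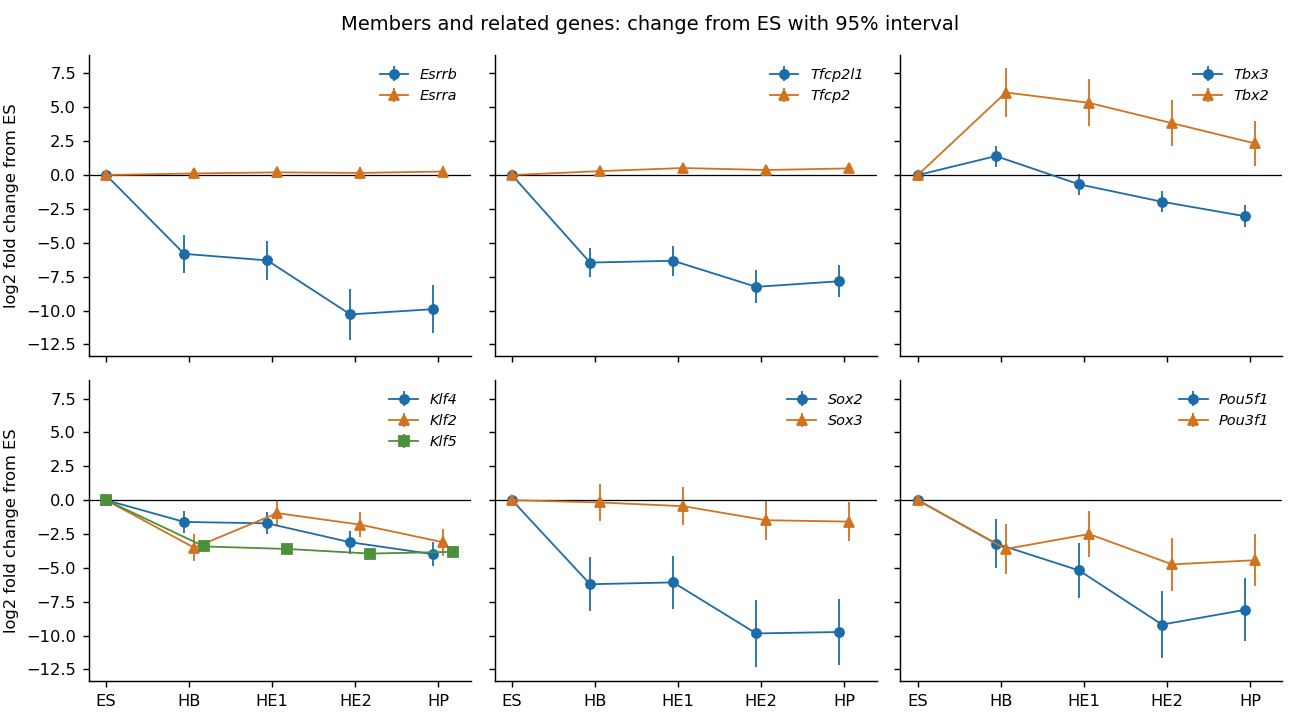
Log2 fold change from ES with its 95% interval (edgeR) for 6 members and their related genes, by stage, with ES set to 0. Esrra and Tfcp2 stay near 0 while Esrrb and Tfcp2l1 fall to -9.90 and -7.84 in HP, Tbx2 and Tbx3 both rise in HB, and Klf2 rises again in HE1.

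Of the 24 other genes of the pluripotency network, which include Klf2, Klf5 and Dppa4, 18 were called lower in HB and none higher, against 17.3% and 11.5% of all tested genes, with a median change of -3.20 on the log2 scale against 0. All 24 were lower in HP, where 21.9% of all tested genes were. The largest falls in HB were those of Tcl1 (-8.64, SE 0.63), Gdf3 (-8.29, SE 0.57) and Fbxo15 (-6.82, SE 0.83), against -6.60 for Zfp42, the lowest value of a member. Of 12 genes of the formative or primed epiblast, a state that cells pass through after the naive one, 2 were lower in HB, Pou3f1 (-3.61, SE 0.82) and Etv5 (-1.94, SE 0.42), and 4 were higher, led by Lef1 (4.57, SE 0.69), Fgf8 (4.49, SE 0.36) and Sox11 (1.99, SE 0.30), which are also genes of early mesoderm or of other lineages. The share of the 12 that was lower was near the 17.3% of all tested genes, 11.5% of all tested genes were higher, and the median change of the 12 was 0.12 on the log2 scale against 0. In HP 7 of these 12 were lower than ES and none higher, against 21.9% and 16.7% of all tested genes.

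The genes most like the core factors were found among the tested genes at 9 CPM or more in ES, by the Euclidean distance of the mean log2 differences from ES over the 4 later stages. For Pou5f1 these were L1td1 (distance 0.903), Nanog (1.17) and Ncan. For Sox2 they were Triml1, Zfp42 (0.518) and Nr0b1, and for Nanog they were Ncan, L1td1 (0.824) and EU599041. Ncan, Nr0b1 and EU599041 had at most 3 counts in each of the 4 libraries of HE2 and HP, and Triml1 in 3 of them, so that their differences from ES there depend on the prior count, and their distances and places are not measured. The distances rest on 10 libraries and include the HE1 libraries that stood apart. Over HB, HE2 and HP alone, an alternative chosen after seeing the data, the nearest genes were A2m, Gli1 and L1td1 for Pou5f1, Triml1, Fgf4 and Zfp42 for Sox2, and Ncan, EU599041 and Gli1 for Nanog. A2m was at or under 3 counts in all 4 libraries of HE2 and HP and Gli1 in 2 of them. Of the 3 genes named first, 1 remained for Pou5f1 and 2 each for Sox2 and Nanog.

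Reads of some members could be shared with other annotated genes. Sox2 lies within Sox2ot on the same strand with no shared exon, and Sox2ot had 250 and 136 counts in ES and 5 and 4 in HB, far below Sox2 itself. In the silenced stages this did not hold throughout, since Sox2ot had 28 counts in HE1 replicate 1, where Sox2 had 17, and 21 in HP replicate 2, where Sox2 had 4. The small RNA gene Gm23497 lies on 130 exon bases of Tfcp2l1, 1.38% of its exons, on the same strand, and pairs there were counted on both. Gm19553 and Tbx3os1 overlap exons of Pou5f1 and Tbx3 on the opposite strand, and counting was by strand. The pseudogene Zfp42-ps1 had 3965 and 2229 counts in ES and 25 and 15 in HB, and how reads were divided between it and Zfp42 is uncertain.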

How the data were processed

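The authors removed rRNA reads (RiboDetector), trimmed reads (Trimmomatic), used HISAT2 (v2.2.1) for alignment to the mm10 genome and assigned read pairs by strand to Ensembl release 102 exons with featureCounts (v2.0.1), counting a pair on each gene it touched. These deposited counts of 10 nuclear RNA libraries are raw. The deposited matrix of stage means, a CPM-based score normalized and averaged by the authors, supplied member names and served as an alternative for the 9 CPM limit. The study describes replicates of a stage as independent, and p-values measure the spread between these libraries only.

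The members and lists were chosen with earlier results of these data known. The main test was the quasi-likelihood test of edgeR (v4.0.16; R v4.3.3) with filterByExpr, TMM and stage as the only term over all 10 libraries (5 residual degrees of freedom). Benjamini-Hochberg adjustment covered 22596 genes, and genes past both an adjusted p of 0.05 and a 2-fold change were called. All members and related genes are named, as are the 3 called genes with the largest fall and rise in HB of each other list and the 3 genes most like each core factor; overlapping genes, pseudogenes and markers were added afterwards. Intervals are 95% and floors cover counting error only. The test was tried on simulated data. Alternatives were limma-voom (limma v3.58.1), DESeq2 (v1.42.0), total counts or RLE in place of TMM, no filter, only the 4 libraries compared, a replicate block, no fold or a 4-fold criterion, other rules for the 9 CPM limit, and leaving out each library. Of 55487 gene IDs, 55141 matched the table of names.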

Additional observations from a re-analysis of the deposited data

How the results depend on the processing

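Against ES, 9, 10 and 10 members were lower in HE1, HE2 and HP with each other tool, scaling and filter, 8, 9 and 10 with a 4-fold criterion, and 9 to 10, 10 and 10 when 1 library was left out. In HB 7 to 9 members were lower when a library was left out, and 8 lower and 0 higher with a 4-fold criterion. For HE1 against HB, the count of 2 lower members was 1 under DESeq2, under total counts and with a 4-fold criterion, and lay between 1 and 9 (0 to 1 higher) when a library was left out. For HE2 against HE1, the count of 10 was 2 under limma-voom and 0 with only the 4 libraries, and lay between 0 and 10 when a library was left out. For HP against HE2, 1 member was lower (Tbx3) and 1 higher (Pou5f1) with no filter, and 0 to 2 were lower when a library was left out. In HE1, 2 members were under 9 CPM in each library, 5 on total counts, 7 in the authors' means, and 2 to 8 members when a library was left out; in HE2 it was 8 to 9. The causes were not tested.

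Directions turned only between neighbouring stages, in changes that had not been called. For HE1 against HB, limma-voom gave log2 changes of -0.40 for Sox2, -0.35 for Zfp42 and -0.0404 for Tfcp2l1. For HP against HE2 it gave -0.27 for Sox2, -0.26 for Nanog and -0.0927 for Dppa5a, DESeq2 gave -0.00995 for Nanog and -0.0364 for Dppa5a, and the fit to only the 4 libraries gave -0.00773 for Nanog and -0.0448 for Dppa5a. With 1 library left out, the log2 changes of HE1 against HB ran from -2.69 to 1.21 for Sox2, -2.66 to 0.27 for Esrrb, -2.29 to 1.19 for Zfp42, -1.11 to 0.72 for Tfcp2l1, -0.46 to 0.16 for Klf4 and -3.69 to 0.40 for Dppa5a. Those of HP against HE2 ran from -1.14 to 1.85 for Pou5f1, -1.53 to 0.72 for Sox2, -1.48 to 0.69 for Nanog, -0.34 to 0.92 for Zfp42, -0.76 to 0.44 for Dppa5a and -0.59 to 0.93 for L1td1.

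The libraries of different stages share only a replicate number. Across genes, the differences between replicates 1 and 2 correlated between -0.316 and 0.213 over pairs of stages. With a replicate block, 1 member was lower in HE1 than HB and 8 were lower in HE2 than HE1, and the other counts of members were unchanged.

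The nearest profiles without HE1, the count without Dppa4 and the repeats of the fit for Klf2 were chosen after seeing the data, and Klf2 was called higher in HE1 than HB in each repeat.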
